A study of Mus musculus with 12 samples.

Results

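The 8 transcription factor genes Tcf7, Lef1, Bcl11b, Gata3, Runx1, Ikzf1, Ets1 and Satb1 act in T-cell commitment, some of them in other blood cells too, and were followed across the whole series. They were chosen by symbol, with earlier results of these data known, and all 8 had a row among the 54351 genes of the count table and passed the filter on low counts. Polyadenylated RNA was sequenced from 12 mouse samples in 4 groups of 3. LN3 thymus and LN3 spleen were leukaemia cells (T-ALL, acute lymphoblastic leukaemia of T cells) of LN3 tg mice, on the C57BL/6 strain, taken when the animals were overtly sick. WT thymocytes and WT CD8 cells came from wildtype, tumour-free C57BL/6J mice. The organs were dissociated mechanically, and neither the leukaemia cells nor the thymocytes were sorted. The WT CD8 cells were enriched from spleen by negative selection, to a stated purity of 85 to 95%. LN3 samples carry the same T-ALL numbers in both organs, without word on whether a shared number means a shared mouse. The labels give no age, do not name the LN3 transgene or the promoter that drives it, and do not say whether samples of a group were separate animals. The p-values therefore measure only how far these samples lay apart, some of which may be technical.

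T-cell identity is built in the thymus in steps. Notch signals switch on Tcf7, whose product TCF-1 is an HMG-box protein that binds T-cell loci together with its close relative LEF-1, the product of Lef1. GATA3 and the zinc-finger protein BCL11B then complete commitment and shut off other fates. RUNX1, Ikaros (from Ikzf1) and ETS1 are broader blood-cell factors that share many binding regions with them, and SATB1 arranges chromatin in thymocytes. In T-ALL several of these genes are known from human patients as targets of mutation or deletion.

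Levels are given in CPM, the count of a gene as a share of its library's total, set to a common size with TMM factors that correct for libraries dominated by few genes. A difference is a log2 difference between group means in edgeR's quasi-likelihood test. A called gene is one with a p below 0.05 after Benjamini-Hochberg adjustment over all 20897 genes tested. Intervals of a log2 difference cover 95%. CPM compares one gene between samples, not 2 genes with each other. In bulk RNA, fewer cells of a type and less RNA per cell cannot be told apart.

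Libraries held 12694571 to 42483898 counts. The ribosomal RNA gene CT010467.1 took 4.61 to 10.5% of the counts in 6 libraries (all 3 of LN3 spleen, LN3 thymus 2 and 3, and WT thymocytes 3) and 0.44 to 1.45% in the other 6. In the spleen comparison this ribosomal share and the genotype cannot be told apart directly, since all LN3 libraries were high and all WT CD8 libraries low. Counts rose most with GC content in WT thymocytes 3, which stood far from the rest (slope 10.9, in log2 units from the mean of all libraries per unit of GC fraction), followed by LN3 spleen 1 (2.07) and LN3 thymus 2 (2.07). The other 9 slopes lay between −2.82 and −0.0124. The choice of scaling moved the median log2 difference of all genes, which was −0.04 in the thymus comparison (−0.24 with library totals, −0.21 with upper-quartile scaling) and −0.11 in the spleen comparison (−0.51 and −0.43). Higher calls were part of the same shift, at 53.78% of all calls in the thymus (38.24% and 41.2%) and at 57.96% in the spleen (40.02% and 41.68%). The 6 T-cell markers (Cd3d, Cd3e, Cd3g, Trbc1, Trbc2 and Lck) summed to 3440 to 6480 CPM in LN3 thymus, 3710 to 4450 CPM in LN3 spleen, 1580 to 2350 CPM in WT CD8 cells and 3520 to 7030 CPM in WT thymocytes, so that no group lacked these markers.

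The start-site regions of Lef1 and Satb1 are shown because these genes differed in opposite directions in LN3 thymus. Each is the 250 bases before the most upstream RefSeq start (assembly GRCm38.p6), with motif matches in capitals. The Lef1 window lies at chr3:131110047-131110296 on the plus strand and overlaps an exon of the antisense gene Gm43352. The Satb1 window lies at chr17:51833291-51833540 on the minus strand and overlaps an exon of the gene Gm6934.
Lef1: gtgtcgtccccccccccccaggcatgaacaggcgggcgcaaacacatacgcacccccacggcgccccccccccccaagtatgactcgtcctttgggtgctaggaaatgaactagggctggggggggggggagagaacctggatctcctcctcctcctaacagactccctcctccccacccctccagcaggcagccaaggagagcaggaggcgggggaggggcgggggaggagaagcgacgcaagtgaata
Satb1: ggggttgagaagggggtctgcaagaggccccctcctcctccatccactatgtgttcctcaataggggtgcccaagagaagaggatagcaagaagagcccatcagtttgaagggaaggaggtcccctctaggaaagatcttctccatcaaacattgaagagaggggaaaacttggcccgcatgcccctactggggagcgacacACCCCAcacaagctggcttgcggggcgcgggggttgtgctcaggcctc
Both strands were searched for 5 motifs. The letters CTTTGA stood for TCF/LEF proteins. The RUNX motif was TGNGGT, with any base at N. For ETS proteins the letters were CCGGAA. The GATA motif was AGATAA. Ikaros was searched as TGGGAA, which CSL, the DNA-binding partner of Notch, also reads. No motif holds another. The Lef1 window printed here held no match. The printed Satb1 window held 1 match, to the RUNX motif read on the other strand (ACCCCA), starting at −48 from the start site. Among 32851 RefSeq windows of the same length, 40.1% held the RUNX motif, 13.8% the TCF/LEF motif, 12% the ETS motif, 9.99% the GATA motif and 21.6% the Ikaros motif. The most upstream Bcl11b window, not printed because it overlaps the first exon of Bcl11b itself, held 1 TCF/LEF match at −89, and that of Gata3 1 ETS match at −203. Those of Tcf7, Runx1 and Ikzf1 held none. RefSeq has 4 starts for Lef1, and the most downstream one had 2 TCF/LEF matches and 3 RUNX matches before it, and the start next to that had 1 RUNX match (−194). Further starts of other genes had matches too. They were 1 ETS match for Tcf7 (−24), 1 ETS match for Runx1 (−106), and for Satb1 a RUNX match and 1 Ikaros match (−70). That RUNX match was the same site in 2 overlapping windows, at −115 and −245 from their starts. RefSeq windows were found for 7 of the 8 genes, the other being Ets1.

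In LN3 thymus 4 of the 8 factors were called against WT thymocytes, 2 higher (Lef1 and Runx1) and 2 lower (Bcl11b and Satb1). Of all genes tested 11.3% were called, 6.06% higher and 5.21% lower. The median log2 difference of the 8 was 0.26. In LN3 spleen 5 of the 8 were called against WT CD8 cells, all higher (Tcf7, Lef1, Gata3, Runx1 and Ikzf1), beside 30.9% of all genes, 17.9% higher and 13% lower. The median of the 8 was 1.12 there. Libraries of the 2 groups did not overlap for the same 4 factors in the thymus, where 14.4% of genes were separated with LN3 higher and 12.8% with LN3 lower. In the spleen 6 factors were separated, all with LN3 higher, where 27.5% of genes were separated that way and 30.8% the other. The thymus count fell to 2 without LN3 thymus 1 or without LN3 thymus 2 and to 1 without WT thymocytes 1, and the spleen count to 3 without WT CD8 1 or without WT CD8 2. With the ribosomal share as a term, an alternative chosen after seeing the data, 4 factors were called in the thymus and 1 in the spleen.

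**Figure D1:**
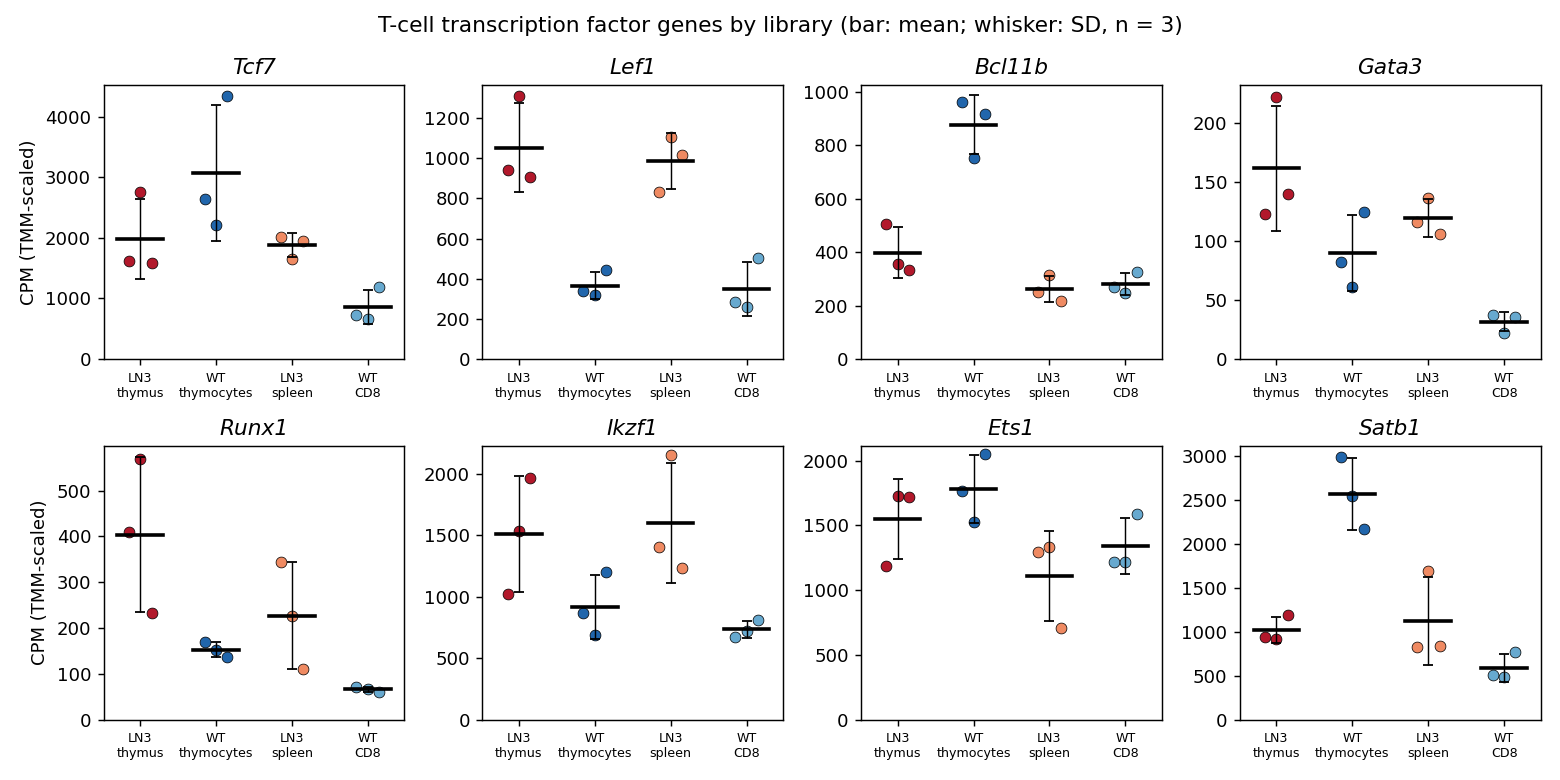
Level of each of the 8 genes in CPM (y axis, from 0) in the 12 libraries, by group (x axis); points are libraries 1 to 3 from left to right, the bar is the mean and the whisker the SD. Lef1 lies at 832 CPM or more in every LN3 library and at 505 CPM or less in every WT library, while Satb1 is highest in WT thymocytes.

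**Figure D2:**
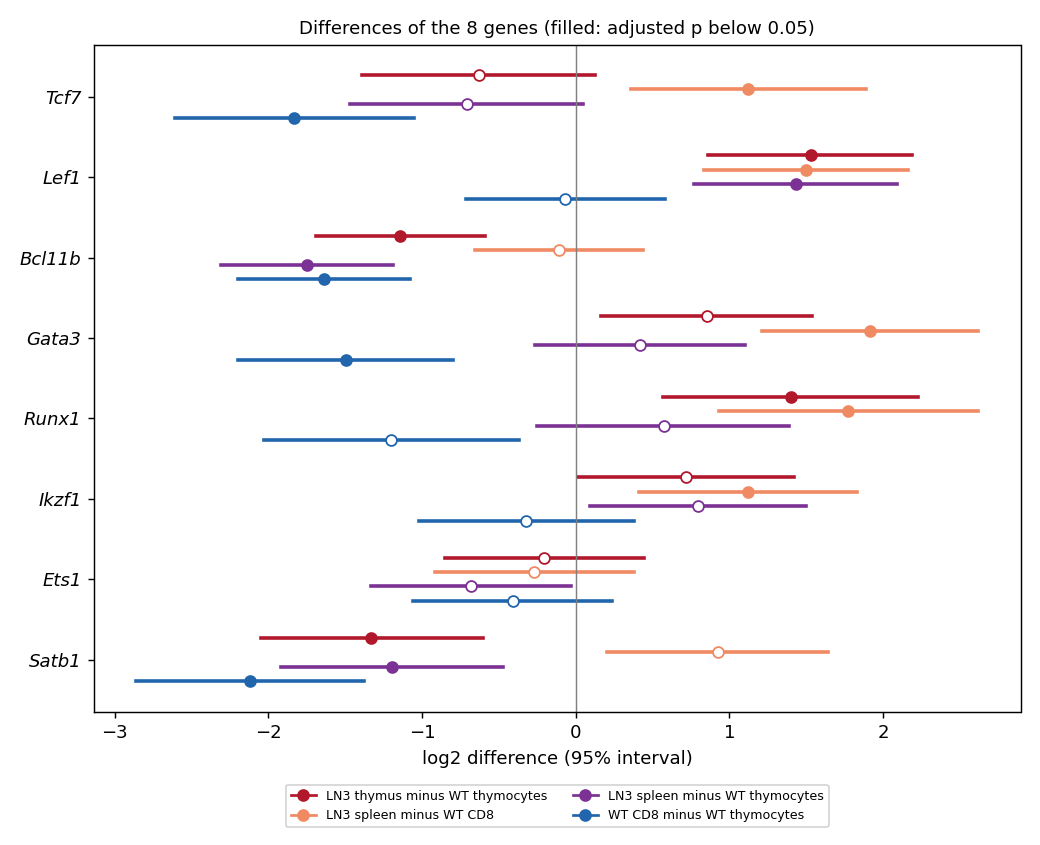
Log2 difference of each gene (x axis) in 4 comparisons, with the 95% interval as a line; filled points have an adjusted p below 0.05. Lef1 lies between 1.43 and 1.53 in the 3 comparisons of LN3 with WT cells, whereas Satb1 is at −1.33 in the thymus and 0.92 in the spleen.

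Lef1 was higher in LN3 cells than in WT cells of the same organ, by nearly the same factor in thymus and spleen. On GRCm38 the gene lies on chromosome 3, 131110471 to 131224356. Libraries 1, 2 and 3 had 943, 1310 and 906 CPM in LN3 thymus, against 337, 317 and 443 CPM in WT thymocytes. They had 832, 1107 and 1017 CPM in LN3 spleen, against 283, 258 and 505 CPM in WT CD8 cells. In both organs the lowest LN3 library lay above the highest WT library. The log2 difference was 1.53 in the thymus (SE 0.307, adjusted p = 0.00713), a 2.88-fold higher level, and 1.50 in the spleen (SE 0.307, adjusted p = 0.00327). The difference between those differences was −0.03 (interval −0.95 to 0.89, adjusted p = 0.981). By mean CPM the order was LN3 thymus (1053 ± 223), LN3 spleen (985 ± 140), WT thymocytes (365 ± 67.6) and WT CD8 cells (349 ± 136; SD, n = 3 each), and neither the LN3 pair nor the WT pair of neighbours differed beyond their spread. The thymus call held under all 22 alternatives, with an adjusted p of at most 0.0433. The spleen difference was 1.16 with the ribosomal share as a term, where the call ended (adjusted p = 0.0794). Gm43352, which overlaps Lef1 on the other strand, had 202 to 1532 counts, and whether counting used the strand is not given in the sources used here.

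Tcf7, on chromosome 11 (52252371 to 52283014), took different places in the 2 organs. It had 1611, 2748 and 1579 CPM in LN3 thymus, against 2648, 2212 and 4334 CPM in WT thymocytes. Those groups overlapped through LN3 thymus 2, and the log2 difference of −0.63 was not called (interval −1.39 to 0.13, adjusted p = 0.297), though it was with library totals as scaling (−0.82, adjusted p = 0.0388). In the spleen Tcf7 had 2021, 1655 and 1954 CPM in LN3 cells, against 733, 664 and 1186 CPM in WT CD8 cells, with no overlap. It was 2.18-fold higher there (log2 difference 1.12, SE 0.353, adjusted p = 0.0295). That call ended without LN3 spleen 1 (adjusted p = 0.0711), LN3 spleen 3 (0.0771), WT CD8 1 (0.109) or WT CD8 2 (0.111), with upper-quartile scaling (0.0606), and with the ribosomal share as a term, where the difference was 0.49 (0.489). Within normal cells Tcf7 was 3.56-fold lower in WT CD8 cells than in WT thymocytes (log2 difference −1.83, SE 0.359, adjusted p = 0.00456). That comparison called 4 of the 8 factors, all lower, beside 15.7% of all genes (7.24% higher and 8.49% lower). The spleen and thymus differences of Tcf7 were 1.75 apart on the log2 scale (interval 0.68 to 2.83, adjusted p = 0.0701). They were called as different without LN3 thymus 2 (adjusted p = 0.0395), with library totals (0.0248), with no filter on low counts (0.0472) and by DESeq2 (0.00952). The 4 group means were 1979 ± 666 CPM in LN3 thymus, 1877 ± 195 CPM in LN3 spleen, 861 ± 284 CPM in WT CD8 cells and 3065 ± 1120 CPM in WT thymocytes.

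The balance of the 2 TCF/LEF genes was read as the ratio of their counts inside a library, which no library scaling can change. Lef1 over Tcf7 was 0.586, 0.477 and 0.574 in LN3 thymus, against 0.127, 0.143 and 0.102 in WT thymocytes. The ranges did not overlap, and the ratio was 4.42-fold higher in LN3 thymus (log2 difference 2.14; 2.01 to 2.25 with any 1 library left out). An exact two-sided permutation test gave p = 0.1, the smallest that 3 against 3 libraries allow, and 0.267 after adjustment over the 8 ratio tests. In LN3 spleen the ratio was 0.412, 0.669 and 0.520, against 0.386, 0.389 and 0.426 in WT CD8 cells. Those groups overlapped in 1 LN3 library, and the log2 difference was 0.39 (exact permutation p = 0.2, adjusted 0.4). WT thymocytes thus had the lowest ratio of the 4 groups, by range.

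**Figure D3:**
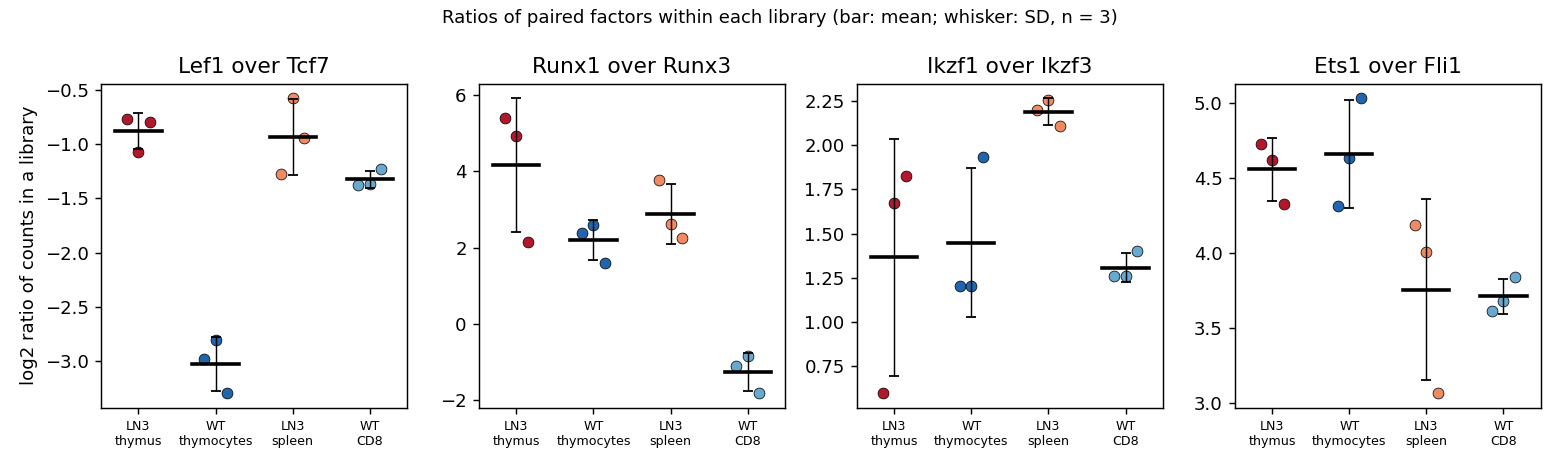
Log2 ratio of the counts of paired factors within a library (y axis) by group (x axis); points are libraries, the bar is the mean and the whisker the SD. Lef1 over Tcf7 is lowest in the 3 WT thymocyte libraries, at a mean of −3.02, and Runx1 over Runx3 lowest in the 3 WT CD8 libraries, at −1.25.

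Bcl11b, on chromosome 12 (107910403 to 108003602), encodes the zinc-finger factor that locks cells into the T lineage and is known as a tumour suppressor in T-ALL. It had 507, 354 and 332 CPM in LN3 thymus, against 962, 752 and 917 CPM in WT thymocytes. Every LN3 thymus library lay below every WT thymocyte library, and the level was 2.21-fold lower (log2 difference −1.14, SE 0.256, adjusted p = 0.0127). The call ended without LN3 thymus 3 (adjusted p = 0.0564), without WT thymocytes 1 (0.0574), without the 3 libraries with the strongest rise with GC content (0.0559) and when only these 2 groups were fitted (0.072). In the spleen, Bcl11b had 252, 314 and 217 CPM in LN3 cells, against 268, 248 and 328 CPM in WT CD8 cells. The groups overlapped, at a log2 difference of −0.11 (interval −0.65 to 0.44, adjusted p = 0.761). WT CD8 cells were 3.12-fold lower than WT thymocytes (log2 difference −1.64, SE 0.259, adjusted p = 0.0012), so WT thymocytes stood highest of the 4 groups at 877 ± 110 CPM. The spleen and thymus differences of Bcl11b were 1.03 apart (interval 0.26 to 1.81, adjusted p = 0.143; 0.0298 by DESeq2).

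Gata3, on chromosome 2 (9857078 to 9890034), encodes the zinc-finger factor needed for early T-cell development and for the CD4 lineage. It had 116, 137 and 106 CPM in LN3 spleen, against 37.3, 22.1 and 35.9 CPM in WT CD8 cells. The groups were well apart, and the level was 3.77-fold higher in LN3 spleen (log2 difference 1.91, SE 0.327, adjusted p = 0.00112). Gata3 was the 1 factor still called in the spleen with the ribosomal share as a term (log2 difference 1.24, adjusted p = 0.0478). In the thymus it had 123, 223 and 140 CPM in LN3 cells, against 82.7, 61.5 and 125 CPM in WT thymocytes. The groups overlapped, since LN3 thymus 1 lay below WT thymocytes 3, and the log2 difference was 0.85 (interval 0.16 to 1.54, adjusted p = 0.111). It was called without WT thymocytes 3 (1.18, adjusted p = 0.0313) and by limma on the authors' variance-stabilized values (0.88, adjusted p = 0.0225). WT CD8 cells were 2.82-fold lower than WT thymocytes (log2 difference −1.50, adjusted p = 0.00772), and stood lowest of the 4 groups at 31.8 ± 8.37 CPM.

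Runx1, on chromosome 16 (92601466 to 92826149), encodes a DNA-binding partner of CBFβ that acts throughout blood formation and, in mouse thymocytes, silences Cd4 before the CD4 CD8 double-positive stage. It had 409, 570 and 233 CPM in LN3 thymus, against 169, 153 and 137 CPM in WT thymocytes. In the spleen it had 345, 226 and 112 CPM in LN3 cells, against 71.3, 68.0 and 60.4 CPM in WT CD8 cells. LN3 libraries varied widely and yet all lay above the WT libraries of their organ. The log2 difference was 1.40 in the thymus (SE 0.385, adjusted p = 0.0341) and 1.77 in the spleen (SE 0.390, adjusted p = 0.00488). The thymus call ended under 10 of 22 alternatives. Those were library totals (adjusted p = 0.0803), upper-quartile scaling (0.0602), limma (0.0658), the fit without the 3 libraries with the strongest rise with GC content (0.117), and the fits without LN3 thymus 1 (0.0777), LN3 thymus 2 (0.142), WT thymocytes 1 (0.0954), 2 (0.0904) or 3 (0.074), or WT CD8 1 (0.0502). The spleen difference was 1.91 with the ribosomal share as a term, with an adjusted p of 0.0502. WT CD8 cells against WT thymocytes stood at −1.20 (adjusted p = 0.0512), a difference called under 10 of 22 alternatives.

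Runx3, the paralog that silences Cd4 in CD8 cells, had 25.3, 36.6 and 23.5 CPM in LN3 spleen, against 154, 121 and 211 CPM in WT CD8 cells, and was 5.69-fold lower (log2 difference −2.51, SE 0.510, adjusted p = 0.00316). Runx1 over Runx3 thus had a median of 6.18 in LN3 spleen (4.74 to 13.6), against 0.464 in WT CD8 cells (0.286 to 0.560). The ratio was 17.5-fold higher in LN3 spleen with no overlap, at an exact permutation p of 0.1, the smallest possible (adjusted 0.267). In LN3 thymus the ratio ran from 4.44 to 42.2, against 3.03 to 5.99 in WT thymocytes. Those ranges overlapped (log2 difference 1.97, exact permutation p = 0.3, adjusted 0.48), and Runx3 itself was at −0.34 (adjusted p = 0.73). Runx1 and Runx3 transcripts differ in GC content (46.37% and 55.95%), so GC effects on counts would not cancel in this ratio. The lowest thymus ratio, 3.03, was that of WT thymocytes 3, where counts rose most with GC content. The shared partner Cbfb was at 0.18 in the thymus (adjusted p = 0.689) and 0.61 in the spleen (adjusted p = 0.0572).

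Ikzf1, on chromosome 11 (11685003 to 11772926), encodes Ikaros, which in mouse thymocytes restrains Notch target genes. It had 1403, 2155 and 1236 CPM in LN3 spleen, against 675, 723 and 809 CPM in WT CD8 cells. All LN3 libraries lay above all WT CD8 libraries, 2.17-fold higher by the fit (log2 difference 1.12, SE 0.326, adjusted p = 0.0211). That call ended with library totals (adjusted p = 0.0698), upper-quartile scaling (0.0628), without LN3 spleen 2 (0.0725), WT CD8 1 (0.0792) or WT CD8 2 (0.0605), and with the ribosomal share as a term (log2 difference 0.42, 0.497). In the thymus it had 1022, 1540 and 1969 CPM in LN3 cells, against 867, 691 and 1200 CPM in WT thymocytes. The groups overlapped in LN3 thymus 1, and the log2 difference was 0.72 (interval 0.015 to 1.42, adjusted p = 0.192). The related Ikzf3, which encodes Aiolos, was at 0.79 in the thymus (adjusted p = 0.0542) and 0.23 in the spleen (adjusted p = 0.475). Ikzf1 over Ikzf3 had a median of 4.60 in LN3 spleen (4.31 to 4.78), against 2.40 in WT CD8 cells (2.40 to 2.64), without overlap (log2 difference 0.88, exact permutation p = 0.1, adjusted 0.267). In the thymus the ratios overlapped (log2 difference −0.08, exact permutation p = 0.9).

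Ets1, on chromosome 9 (32636221 to 32757820), encodes a winged-helix factor that supports thymocyte survival, and with TMM scaling was called in no comparison. It had 1189, 1728 and 1719 CPM in LN3 thymus, against 1768, 1528 and 2048 CPM in WT thymocytes. It had 1292, 1332 and 711 CPM in LN3 spleen, against 1219, 1214 and 1589 CPM in WT CD8 cells. Groups overlapped in both organs. The log2 difference was −0.20 in the thymus (interval −0.85 to 0.44, adjusted p = 0.738) and −0.27 in the spleen (interval −0.92 to 0.38, adjusted p = 0.498). Its ratio to the ETS gene Fli1 differed by −0.10 in the thymus (exact permutation p = 0.8) and by 0.04 in the spleen (exact permutation p = 1.0) on the log2 scale. Fli1 was not called in either organ (log2 difference −0.08, adjusted p = 0.882, and −0.36, adjusted p = 0.293).

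Satb1, on chromosome 17 (51736187 to 51833290), encodes a chromatin organiser that is abundant in double-positive thymocytes. It had 945, 919 and 1196 CPM in LN3 thymus, against 2986, 2537 and 2165 CPM in WT thymocytes, with no overlap. There it was 2.51-fold lower (log2 difference −1.33, SE 0.335, adjusted p = 0.023). Leaving out LN3 thymus 1 (adjusted p = 0.0685), LN3 thymus 2 (0.0764) or WT thymocytes 1 (0.0837) ended this call, as did leaving out the 3 libraries with the strongest rise with GC content (0.0568). In the spleen it had 824, 1695 and 834 CPM in LN3 cells, against 503, 490 and 774 CPM in WT CD8 cells. All LN3 spleen libraries lay above all WT CD8 libraries, at a log2 difference of 0.92 (interval 0.21 to 1.64, adjusted p = 0.0508) that was called under 8 of 22 alternatives. The test of the difference between the organs called 1 of the 8 factors, Satb1, beside 4.19% of all genes (3.29% with the larger value in the spleen and 0.895% with the smaller). Its spleen difference lay 2.25 above its thymus difference on the log2 scale, with an SE of 0.472 (adjusted p = 0.0176). This call ended with library totals (adjusted p = 0.0528), with the replicate number as a block (0.0504) and without WT CD8 1 (0.0612). The mean was 1020 ± 153 CPM in LN3 thymus and 1117 ± 500 CPM in LN3 spleen, whereas WT CD8 cells, at 589 ± 160 CPM, were 4.35-fold below WT thymocytes, at 2563 ± 411 CPM (log2 difference −2.12, SE 0.343, adjusted p = 0.00137). The gene Gm36931 overlaps Satb1 on its strand with 37 to 634 counts, and Gm6934 on the other with 74 to 729, where Satb1 had at least 9209.

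Between the 2 leukaemia sites none of the 8 factors was called by edgeR, beside 0.723% of all genes (0.694% higher and 0.0287% lower), and none by DESeq2 or limma. At an unadjusted p below 0.05 there were 2, Bcl11b and Runx1. Bcl11b was at a log2 difference of −0.61 in LN3 spleen against LN3 thymus (interval −1.15 to −0.058, adjusted p = 0.487) and had no overlap between the sites, as 5.24% of all genes had with LN3 spleen lower and 6.22% with it higher. Runx1 was at −0.83 (interval −1.65 to −0.0049, adjusted p = 0.571), with overlapping libraries. For the other 6 the differences lay between −0.47 (Ets1) and 0.13 (Satb1). The intervals were −0.83 to 0.68 for Tcf7, −0.75 to 0.55 for Lef1 and −0.58 to 0.85 for Satb1, so that these data bound such differences and do not show them to be absent.

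LN3 spleen was also set against WT thymocytes, the immature normal cells, because the mature WT CD8 cells differed so much from them. There 3 of the 8 factors were called, beside 19.8% of all genes. Lef1 was 2.70-fold higher (log2 difference 1.43, SE 0.306, adjusted p = 0.00801), and Bcl11b and Satb1 were lower (11.3% of genes were higher and 8.52% lower). Bcl11b was 3.36-fold lower (log2 difference −1.75, SE 0.260, adjusted p = 0.00113) and Satb1 2.29-fold lower (log2 difference −1.20, SE 0.334, adjusted p = 0.0265). The Satb1 call ended without LN3 spleen 1 (adjusted p = 0.0922), LN3 spleen 3 (0.105), WT thymocytes 1 (0.086) or WT thymocytes 2 (0.0544), with only these 2 groups fitted (0.0844), with the ribosomal share as a term (0.0833) and without the 3 libraries with the strongest rise with GC content (0.0634). Tcf7 was at −0.71 (adjusted p = 0.163), Gata3 at 0.42 (0.353), Runx1 at 0.57 (0.289), Ikzf1 at 0.80 (0.0979) and Ets1 at −0.68 (0.123). Ikzf1 was called without WT thymocytes 3 (adjusted p = 0.0293). With library totals or upper-quartile scaling Tcf7 and Ets1 were called lower too, giving 5 factors. This comparison shares LN3 spleen with one comparison above and WT thymocytes with another, so its values stand beside theirs and do not add to them.

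Markers of other cells moved in part with these differences. Each list had 6 genes with a row, and none was without counts in all libraries of a group. In LN3 thymus the B-cell markers summed to 19.0 to 22.1 CPM, against 31.8 to 61.2 CPM in WT thymocytes, and the NK and innate lymphoid markers to 1.38 to 3.81 CPM, against 7.23 to 10.5 CPM. Myeloid, dendritic, erythroid and stromal sums overlapped between those groups, and the erythroid sum reached 2500 CPM in WT thymocytes 1. In LN3 spleen the erythroid markers summed to 1150 to 3990 CPM, against 27.9 to 424 CPM in WT CD8 cells. The NK and innate lymphoid markers summed to 13.9 to 28.9 CPM in LN3 spleen, against 132 to 380 CPM in WT CD8 cells, and the stromal markers to 113 to 122 CPM, against 137 to 140 CPM. Of the NK and innate lymphoid sum in WT CD8 cells, Eomes alone made 91.05 to 111 CPM. In that list Il1rl1 went the other way by mean (10.12 CPM in LN3 spleen, against 7.11 CPM). How far the sum reflects NK cells was not tested. In the stromal list Col1a1 went against the spleen sum by mean (2.22 CPM in LN3 spleen, against 1.65 CPM in WT CD8 cells). It was also higher in LN3 thymus (8.14 CPM, against 3.43 CPM in WT thymocytes). B-cell sums were 54.4 to 437 CPM in LN3 spleen, against 83.2 to 392 CPM in WT CD8 cells, and myeloid sums 157 to 645 CPM, against 171 to 2440 CPM. Within WT CD8 cells, myeloid sums were 1020, 2440 and 171 CPM in libraries 1, 2 and 3. In the same order B-cell sums were 261, 392 and 83.2 CPM and T-cell sums 1730, 1580 and 2350 CPM. Dendritic, NK and erythroid sums were also lowest in library 3, but not the stromal sum. Tcf7, Lef1, Bcl11b, Ikzf1, Ets1 and Satb1 were highest in library 3, Gata3 and Runx1 were not. Runx1, Ikzf1 and Ets1 are also expressed outside the T lineage. The part of other cells in the differences of all factors was not tested. Within the thymus libraries of low ribosomal share (LN3 thymus 1 against WT thymocytes 1 and 2) the log2 difference was 1.53 for Lef1, −0.76 for Bcl11b, 1.34 for Runx1 and −1.55 for Satb1. Within those of high share (LN3 thymus 2 and 3 against WT thymocytes 3) it was 1.32, −1.42, 1.55 and −1.03 for the same genes, with no test.

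The genes that TCF-1 and LEF-1 act on and work with were taken from lists, described by their counts. Of 7 TCF/LEF targets tested, out of 9 listed, 3 were called higher and none lower in LN3 thymus (median log2 difference 0.14, and −0.01 with library totals). In LN3 spleen 3 were higher and 2 lower (median −0.62, and −0.96 with library totals), so the list did not move in 1 direction. The 3 higher ones were Nkd1 and Ccnd1, named by rule, and Axin2, named after its values were seen. The values below are therefore those of the genes that rose and do not stand for the list. Nkd1, a feedback inhibitor of Wnt signalling, had 14.3, 20.1 and 31.1 CPM in LN3 thymus, against 0.338, 1.04 and 1.63 CPM in WT thymocytes. In the spleen it had 9.50, 40.5 and 65.6 CPM in LN3 cells, against 0.437, 0.221 and 0.241 CPM in WT CD8 cells. The WT values rest on 5 to 19 counts a library. The log2 difference of Nkd1 was 4.46 in the thymus (SE 0.719, adjusted p = 0.002) and 7.04 in the spleen (SE 0.809, adjusted p = 9.15e-05).

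Ccnd1, which encodes the cell-cycle regulator cyclin D1, had 73.2, 102 and 147 CPM in LN3 thymus, against 5.61, 4.29 and 7.83 CPM in WT thymocytes (log2 difference 4.19, SE 0.654, adjusted p = 0.00164). In the spleen it had 95.0, 208 and 213 CPM in LN3 cells, against 17.4, 9.24 and 2.01 CPM in WT CD8 cells (log2 difference 4.18, adjusted p = 0.000631). Axin2, a feedback inhibitor that scaffolds destruction of β-catenin, was 2.89-fold higher in LN3 thymus (log2 difference 1.53, adjusted p = 0.0114) and 2.55-fold higher in LN3 spleen (1.35, adjusted p = 0.00915). For all 3 genes the LN3 and WT libraries of an organ did not overlap. Ctnnb1, which encodes β-catenin, was at 0.03 in the thymus (interval −0.49 to 0.55, adjusted p = 0.958) and 2.00-fold higher in LN3 spleen (interval of the log2 difference 0.47 to 1.53, adjusted p = 0.0086).

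Tle4 encodes a Groucho-type corepressor that binds TCF/LEF proteins in place of β-catenin. It had 1.64, 4.80 and 6.22 CPM in LN3 thymus, against 37.0, 35.8 and 41.7 CPM in WT thymocytes, and 16.1, 4.95 and 9.51 CPM in LN3 spleen, against 104, 94.9 and 133 CPM in WT CD8 cells. It was 9.02-fold lower in the thymus (log2 difference −3.17, SE 0.487, adjusted p = 0.00144) and 10.9-fold lower in the spleen (log2 difference −3.45, SE 0.489, adjusted p = 0.000347). Among the 21 listed cofactors, all tested, 2 were lower and none higher in LN3 thymus (median −0.18; 5 lower with library totals, median −0.34), the other being Mta3, a subunit of the NuRD chromatin remodelling complex (log2 difference −0.94, adjusted p = 0.0239). The Mta3 call ended under 6 of 22 alternatives, including without LN3 thymus 2, LN3 thymus 3 or WT thymocytes 1 (adjusted p up to 0.0921). In LN3 spleen 6 cofactors were higher and 3 lower (median 0.43), among them the NuRD subunit Rbbp4, 2.60-fold higher (log2 difference 1.38, adjusted p = 0.0042), a call that the ribosomal term ended, as it did for Ctnnb1.

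**Figure D4:**
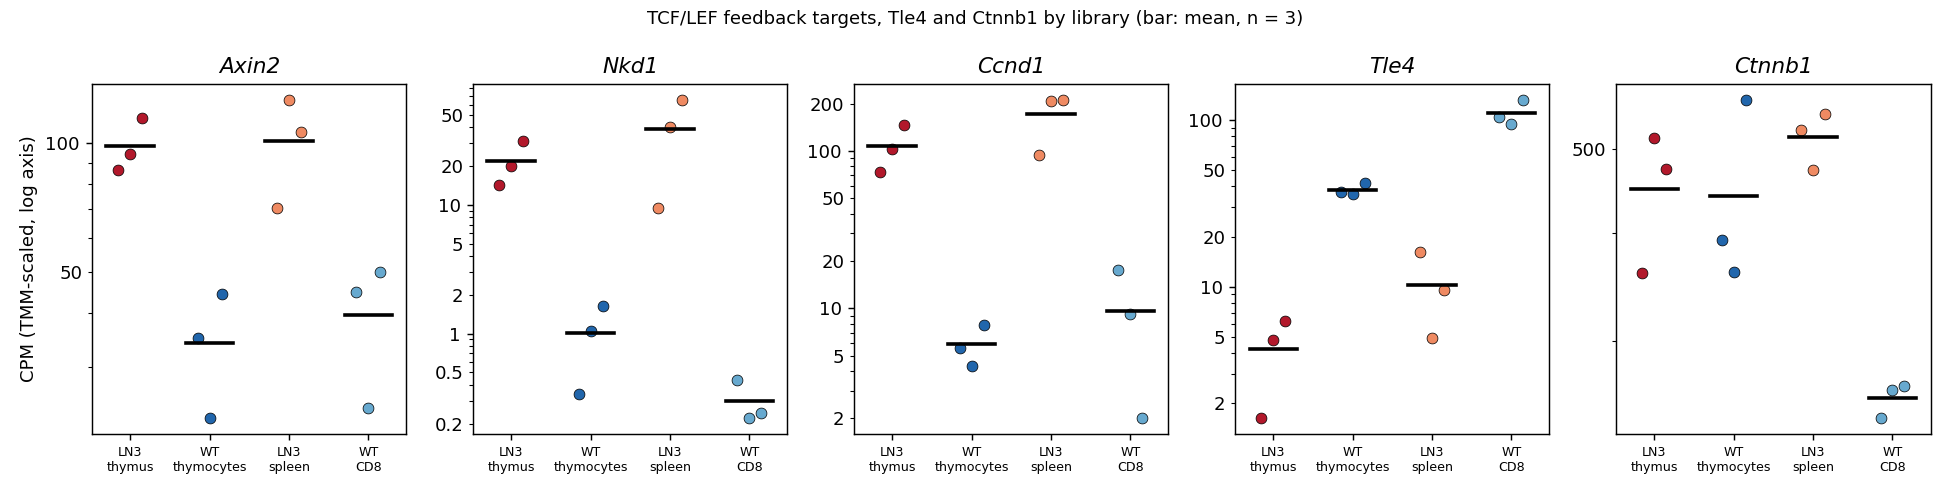
Level in CPM (y axis, log scale) of Axin2, Nkd1 and Ccnd1, the listed TCF/LEF targets that were called higher, the corepressor gene Tle4 and Ctnnb1 in the 12 libraries by group (x axis); points are libraries and the bar is the mean. Nkd1 and Ccnd1 lie at 9.50 CPM or more in LN3 libraries, and Nkd1 at 1.63 CPM or less in WT libraries, while Tle4 is lower in all LN3 than in all WT libraries.

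Of 17 paralogs of the 8 factors, 16 were tested. In LN3 thymus 1 was higher and 2 were lower (median −0.38), and in LN3 spleen 4 were higher and 3 lower (median −0.32; 2 higher and 4 lower with library totals). Ets2, the close relative of Ets1, had 250, 211 and 257 CPM in LN3 thymus, against 632, 448 and 923 CPM in WT thymocytes, and was 2.79-fold lower (log2 difference −1.48, adjusted p = 0.00928). In LN3 spleen it had 156, 287 and 251 CPM, against 32.0, 28.6 and 41.5 CPM in WT CD8 cells, and was 6.79-fold higher (log2 difference 2.76, adjusted p = 0.000103). Ets2 was thus lower than the WT cells of one organ and higher than those of the other. Its level hardly differed between the LN3 sites (log2 difference −0.05, adjusted p = 0.98). WT CD8 cells were far below WT thymocytes (log2 difference −4.29, adjusted p = 1.86e-05). Bcl11a, the paralog of Bcl11b used in B cells and progenitors, was at 0.882, 0.662 and 0.479 CPM in LN3 thymus, against 4.19, 3.74 and 2.58 CPM in WT thymocytes (log2 difference −2.38, adjusted p = 0.0358). That call ended under 9 of 22 alternatives, among them leaving out any 1 LN3 thymus library, WT thymocytes 1 or 2, or WT CD8 1 (adjusted p up to 0.122).

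Of 24 other regulators of T-cell commitment and differentiation, 2 were higher and 6 lower in LN3 thymus (median −0.39; 9 lower with library totals). In LN3 spleen 8 were higher and 7 lower (median 0.26, and −0.13 with library totals). Zbtb7b, which encodes the CD4-lineage factor ThPOK, was 27.8-fold lower in LN3 thymus, at 1.13, 1.49 and 2.25 CPM, against 34.7, 31.5 and 71.2 CPM in WT thymocytes (log2 difference −4.80, SE 0.654, adjusted p = 0.000695). Egr2, induced by receptor signals in thymocytes, was 9.01-fold lower there (log2 difference −3.17, adjusted p = 0.00387). In the spleen Tox2, an HMG-box gene, had 46.7, 56.8 and 78.9 CPM in LN3 cells, against 1.58, 0.601 and 0.394 CPM in WT CD8 cells (log2 difference 6.21, SE 0.515, adjusted p = 8.32e-06). Bach2, a repressor that keeps T cells from effector fates, was 11.7-fold lower in LN3 spleen (log2 difference −3.55, adjusted p = 0.000268).

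Of 18 T-cell identity genes, none was higher and 3 were lower in LN3 thymus (median −0.52), and 3 were higher and 1 was lower in LN3 spleen (median 0.65). With library totals 7 were lower in the thymus, and in the spleen 2 were higher and 3 lower. Rag1, the recombinase gene of immature lymphocytes, was 9.50-fold lower in LN3 thymus (log2 difference −3.25, adjusted p = 0.0127). In the spleen it had 235, 113 and 427 CPM in LN3 cells, against 1.64, 4.62 and 0.591 CPM in WT CD8 cells (log2 difference 6.82, adjusted p = 0.000166). Cd247, the zeta chain of the T-cell receptor complex, was 2.80-fold lower in LN3 thymus (log2 difference −1.49, adjusted p = 0.0131). The thymus call of Rag1 ended without LN3 thymus 2 (adjusted p = 0.0557), and under 3 of 22 alternatives in all (up to 0.114). That of Cd247 ended without LN3 thymus 1 or LN3 thymus 3, and with only these 2 groups fitted (adjusted p up to 0.0576). Ptcra, the pre-T-cell receptor alpha chain, was 52.5-fold higher in LN3 spleen (log2 difference 5.71, SE 0.988, adjusted p = 0.00122). Of 16 genes listed as progenitor and non-T genes lost at commitment, 15 were tested. Against the WT cells of the organ none was higher, 1 was lower in LN3 thymus (median −1.06; 2 with library totals) and 3 were lower in LN3 spleen (median −1.04; 6 lower with library totals). The direction in LN3 spleen depended on the control. Against WT thymocytes 4 were higher and none lower (median 0.62), and against LN3 thymus 3 were higher and none lower (median 2.16). WT CD8 cells themselves had 7 higher and none lower than WT thymocytes (median 1.96). Kit, the stem cell factor receptor, was 4.17-fold lower in LN3 thymus (log2 difference −2.06, adjusted p = 0.0125). The Kit call ended without the 3 libraries with the strongest rise with GC content (adjusted p = 0.059). Il2rb and Zbtb16 were 4.48-fold lower (adjusted p = 0.00369) and 8.03-fold lower (adjusted p = 0.0279) in LN3 spleen. Il2rb had its highest mean in the WT CD8 cells (509 CPM), so there it was no mark of absent T-cell commitment. The Zbtb16 call ended under 7 of 22 alternatives (adjusted p up to 0.14), among them without LN3 spleen 1 or 3 or WT CD8 1 or 2 (up to 0.097).

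The genes whose levels ran most alike with each factor were found by Pearson's r of log2 CPM over the 12 libraries, among 7724 genes with a mean of at least 20 CPM. The points share libraries and groups, so r is a description. For Tcf7 these were Aars2 (r = 0.974), Slc25a23 and Smarcd2, and for Lef1 they were Lmcd1 (r = 0.967), Tango6 and Sall3. For Bcl11b they were Lrrc1 (r = 0.988), Znrf1 and Gm9821, and for Gata3 they were Trim32 (r = 0.972), Kif7 and Nck2. Runx1 ran with Ggt7 (r = 0.970), H1fx and Fam163b, and Ikzf1 with Uri1 (r = 0.939), Arhgef7 and Gm10451. Ets1 ran with Gmfg (r = 0.920), Ctdsp2 and Sidt2, and Satb1 with Dgke (r = 0.953), Mtss1 and Rmnd5a.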

How the data were processed

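RNA of 12 mouse samples was quantified as estimated counts per gene, deposited by the authors. The submitters' processing notes name FastQC, kallisto 0.46.1, DESeq2 and genome build GRCm38; the sources used here give no annotation release, strand setting or version of the other tools. All 652212 estimated counts in the deposited table were whole numbers and were used as such. The authors also deposited variance-stabilized log2 values, which served in 1 alternative test (limma).

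Of 54351 genes, 16997 had no count, and 20897 passed edgeR's filterByExpr. The test was edgeR's (version 4.0.16, R 4.3.3), after TMM scaling, with 4 group means over 12 libraries (8 residual degrees of freedom), robust dispersions, the quasi-likelihood test and Benjamini-Hochberg adjustment over all genes tested. The SE is the log2 difference over the square root of F. Code was tested on simulated data. Ratios were compared with exact permutation tests (scipy 1.17.1). Alternatives used DESeq2 1.42.0 and limma 3.58.1, other scalings, no filter, the replicate number as a block, 2 groups at a time and each library left out. A ribosomal share term (share of 4% or more) and a fit without 3 GC-rich libraries were added after seeing the data.

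The 8 genes and all lists were chosen with earlier results of these data known. Named list genes were the 2 called members with the largest difference per list and organ, plus Runx3, Ikzf3, Fli1, Cbfb and Ctnnb1, and the 3 genes nearest to each factor. Library totals are as in the opening, at a common biological coefficient of variation of 0.4411. Coordinates are from GENCODE on GRCm38 and start-site sequences from RefSeq (GRCm38.p6).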

Additional observations from a re-analysis of the deposited data

Results flagged for a closer look

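The genes Satb1, Ets2, Il2rb, Ptcra, Rag1 and Tox2 differed between LN3 spleen against WT CD8 cells and LN3 thymus against WT thymocytes by edgeR's test of that difference. For Satb1 the spleen difference lay 2.25 above the thymus difference on the log2 scale (adjusted p = 0.0176). The same quantity was 4.24 for Ets2, 3.98 for Tox2, 5.50 for Ptcra, 10.07 for Rag1 and −3.11 for Il2rb. Satb1, Ets2, Rag1 and Il2rb had opposite signs in the 2 organs (the spleen difference of Satb1 and the thymus difference of Il2rb were not called), while Tox2 was higher in LN3 cells in both (log2 difference 2.23 in the thymus). The Ptcra call ended under 9 of 21 alternatives, including without LN3 spleen 3, WT thymocytes 3 or any 1 WT CD8 library (adjusted p up to 0.0695). Between the LN3 sites (spleen minus thymus) none was called, at 0.13 (Satb1), −0.05 (Ets2), −0.09 (Il2rb), −0.99 (Rag1), −0.84 (Ptcra) and 1.04 (Tox2). Between the WT groups all were called, at −2.12, −4.29, 3.02, −11.06, −6.35 and −2.94 in that order (WT CD8 cells minus WT thymocytes). The 2 control groups are different cells, unsorted thymocytes and enriched CD8 cells, so organ and kind of control cannot be told apart.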

How the results depend on the processing

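Of 1048 values of the 8 factors under alternatives, 974 kept their side of the threshold, 42 lost a call and 32 gained one. No value that was called in either fit changed its direction. Some values called in neither fit did, such as Bcl11b in the spleen (−0.11, with alternatives from −0.49 to 0.13). Factors called in LN3 spleen against WT CD8 cells numbered 3 with upper-quartile scaling and 1 with the ribosomal share term, not 5. Against WT thymocytes there were 5 with library totals and 5 with upper-quartile scaling, not 3. In the thymus 1 was called, not 4, without the 3 GC-rich libraries. Between the organs 2 were called with no filter, 0 with the replicate block and 3 with DESeq2, not 1. All genes called between LN3 sites numbered 43 with library totals, 31 with the replicate block, 652 with DESeq2 and 41 with the ribosomal term, and 1 without the GC-rich libraries, not 151. The spleen count was 2838 with the ribosomal term, not 6453. With only 2 groups fitted, LN3 spleen against WT thymocytes gave 2547, not 4146, and the thymus 1482, not 2354. Between the organs 532 were called with the replicate block and 1759 with DESeq2, not 875. The causes were not tested.

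With 1 library left out, factors called ran from 3 to 6 in the spleen, 2 to 4 in LN3 spleen against WT thymocytes, 1 to 4 in the thymus, 4 to 5 in WT CD8 cells against WT thymocytes, 0 to 2 between the organs and 0 to 0 between LN3 sites. Genes called ran in the same order from 4047 to 8501, 2008 to 5988, 1233 to 2777, 1922 to 3284, 496 to 925 and 0 to 255. Log2 ratio differences ran, thymus first, from 2.01 to 2.25 and 0.21 to 0.56 for Lef1 over Tcf7, 1.35 to 2.97 and 3.69 to 4.45 for Runx1 over Runx3, −0.31 to 0.30 and 0.85 to 0.93 for Ikzf1 over Ikzf3, and −0.28 to 0.08 and −0.17 to 0.39 for Ets1 over Fli1. LN3 libraries of the 2 organs share T-ALL numbers in their titles, and whether a shared number means a shared mouse is not stated. How libraries deviate cannot settle this with 3 libraries a group. The numbers entered only the alternatives that use them as a block. Same-numbered libraries did not deviate together (r of −0.15, −0.53 and −0.04 in LN3). Some differently numbered ones did, LN3 thymus 2 with LN3 spleen 1 (r = 0.464) and LN3 thymus 3 with LN3 spleen 2 (0.429). Their GC slopes were alike (2.07 and 2.07, −1.73 and −1.73). LN3 thymus 2 also ran with WT thymocytes 3 (0.505). Whether such libraries share an animal or a batch was not tested, and the main tests treat all libraries as independent.

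With 3 libraries a group, the exact test of a ratio has a smallest p of 0.1. The ribosomal term rests on the thymus libraries, since no spleen comparison has both classes in a group.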
